A study of Mus musculus with 8 samples.

Results

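The Kruppel-like factors are described here through 10 genes, Klf2, Klf3, Klf4, Klf5, Klf6, Klf7, Klf9, Klf10, Klf13 and Klf15, which were chosen by name from the 22558 genes of the fragment table, where they stand in lower case as klf2, klf3, klf4, klf5, klf6, klf7, klf9, klf10, klf13 and klf15. Their RNA was measured by RNA-seq in 8 mouse libraries, 2 in each of 4 groups. In 3 groups, cells carrying fibroblast activation protein (FAP, a surface protease of stromal cells) had been sorted from visceral adipose tissue, skeletal muscle or pancreas, and the labels name the sorted pancreas cells pancreatic stellate cells. The fourth group was mouse embryonic fibroblasts (MEFs) sorted as FAP-negative, cultured for 3 passages and then sorted once more. The labels used here give no strain, age, genotype or treatment for any group. Replicates are described as duplicate experiments, and no label ties them to separate animals, so p-values refer to the spread between these libraries. Every comparison with MEFs also sets cells straight from tissue against cultured cells, and FAP status, origin and culture cannot be told apart in this design.

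The libraries held 15516319 to 27759399 estimated fragments. Levels are given as CPM, the share of a library's scaled fragments multiplied up to a common total, which serve to compare 1 gene between libraries. FPKM values, which also divide by transcript length, serve to compare genes within a library. A gene was called different at a Benjamini-Hochberg adjusted p below 0.05 from edgeR's quasi-likelihood test over 14847 genes, and all 10 Klf genes passed the filter on low counts. The fibroblast markers Pdgfra, Dcn and Lum were present in all 6 FAP+ libraries, and Fap itself ranged from 27.98 to 107.0 CPM there against 0.516 and 2.369 CPM in MEFs. The first adipose library stood apart. Its scaling factor (TMM) was 0.516, against 0.889 in the second adipose library and 1.01 to 1.31 in the other groups. A low factor raises the CPM of a library above what library size alone would give. Between the 2 adipose libraries, bias-adjusted fragments and the whole reads behind the RPKM table disagreed by over 2-fold for 27.1% of 10913 genes, against 0.0183% in muscle, 0.0916% in pancreas and 0.119% in MEFs. For the Klf genes on which the tables differ most, adipose values are given also without that library or in whole reads.

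Kruppel-like factors are transcription factors with zinc fingers at the C-terminus that bind GC-rich boxes and CACCC elements in promoters, a preference they share with the related Sp factors. They fall into groups by what their N-terminal part recruits. Klf2, Klf4, Klf5, Klf6 and Klf7 act mostly as activators. Klf3 binds the corepressor CtBP, and Klf9, Klf10 and Klf13 bind the corepressor Sin3. In stromal and fat cells the family is known for steering adipocyte differentiation, in which Klf4, Klf5, Klf6, Klf9 and Klf15 promote and Klf2, Klf3 and Klf7 restrain the programme. Klf2 and Klf4 are also genes of quiescence, and of flow-exposed endothelium.

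The sequences just before the transcription start were read from RefSeq promoter entries (build GRCm38.p6), which matched 8 of the 10 genes. Klf5 and Klf10 had no entry. The 250 bases upstream of the start are printed for Klf2, Klf4, Klf9 and Klf15, since these 4 genes were higher in all 3 FAP+ populations than in MEFs under every alternative tried. Each is written 5′ to 3′ on the strand of the gene. Capitals mark the GC box GGGCGG and the CACCC element, each searched on both strands, so that CCGCCC and GGGTG are the same motifs read backwards. The positions are chr8:72318812-72319061 (plus strand) for Klf2, chr4:55532476-55532725 (minus strand) for Klf4, chr19:23140976-23141225 (plus strand) for Klf9 and chr6:90462326-90462575 (plus strand) for Klf15.
Klf2: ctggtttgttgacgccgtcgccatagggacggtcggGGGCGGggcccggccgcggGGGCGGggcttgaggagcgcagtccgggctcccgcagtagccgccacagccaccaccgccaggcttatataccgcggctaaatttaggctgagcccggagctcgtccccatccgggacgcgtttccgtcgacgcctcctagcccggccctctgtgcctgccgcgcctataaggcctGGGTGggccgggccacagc
Klf4: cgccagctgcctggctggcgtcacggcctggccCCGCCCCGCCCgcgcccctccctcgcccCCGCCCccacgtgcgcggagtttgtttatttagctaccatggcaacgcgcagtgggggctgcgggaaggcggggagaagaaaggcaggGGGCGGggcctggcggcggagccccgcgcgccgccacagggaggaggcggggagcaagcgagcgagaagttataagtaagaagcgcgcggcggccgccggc
Klf9: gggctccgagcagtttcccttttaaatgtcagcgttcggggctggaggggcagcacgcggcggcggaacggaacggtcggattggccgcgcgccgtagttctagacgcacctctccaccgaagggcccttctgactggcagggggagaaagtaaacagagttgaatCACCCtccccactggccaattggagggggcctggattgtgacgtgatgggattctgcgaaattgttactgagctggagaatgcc
Klf15: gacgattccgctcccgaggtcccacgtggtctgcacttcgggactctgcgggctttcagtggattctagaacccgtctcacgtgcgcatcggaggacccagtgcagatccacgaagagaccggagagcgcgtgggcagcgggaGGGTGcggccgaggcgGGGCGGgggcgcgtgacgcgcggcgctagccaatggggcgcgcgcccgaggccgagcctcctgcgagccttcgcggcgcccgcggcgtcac

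The 4 upstream stretches differed in the boxes they hold. Klf4 had 4 matches to GGGCGG, of which the 2 farthest from the start overlap, and none to CACCC, Klf2 had 2 and 1, Klf15 had 1 and 1, and Klf9 had none and 1. Among the others, Klf3 held the most, with 6 GGGCGG and 5 CACCC matches that overlap in places. Klf13 had 3 and 1, Klf7 had 1 and 3, and Klf6 had 1 and none. At least 1 GGGCGG thus stood in 7 of the 8 Klf promoters and in 32.7% of 32851 promoters of the same length, and at least 1 CACCC in 6 of 8 and in 52% of all. The 8 stretches had 59.2 to 78.4% G or C, above the median of 52.4% over all promoters, and 13 to 37 CpG dinucleotides against a median of 6. The cyclic AMP response element TGACGTCA, present in 1.55% of all promoters, and the TATA box TATAAA, in 12.4%, matched none of the 8 windows. These matches describe letters in the window only.

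In all 3 tissues the sorted FAP+ cells held far more Klf RNA than MEFs. Of the 10 genes, 8 were higher in adipose FAP+ cells than in MEFs, 7 in muscle and 7 in pancreas, and a single gene, Klf5, was lower, in pancreas. Of all genes tested, 26.9% were called higher in adipose, 23.7% in muscle and 23.1% in pancreas, and 23.2%, 20.0% and 19.4% were called lower, which makes 50.1%, 43.8% and 42.5% in either direction. The median log2 fold change of the 10 genes was 2.30 in adipose, 2.39 in muscle and 1.83 in pancreas, where the median over all genes was 0.05, 0.03 and 0.02. The 3 comparisons share the MEF libraries. With library size as the only scaling, the adipose count was 4 higher and 1 lower, and in whole reads it was 8 higher and 1 lower, the lower gene being Klf5 both times. The corresponding muscle counts were 7 higher and 1 lower, and 8 higher and 1 lower, again with Klf5 as the lower gene. In pancreas, library size alone gave 4 higher and 1 lower. In bulk RNA, fewer cells of a type and less RNA per cell cannot be told apart.

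**Figure D1:**
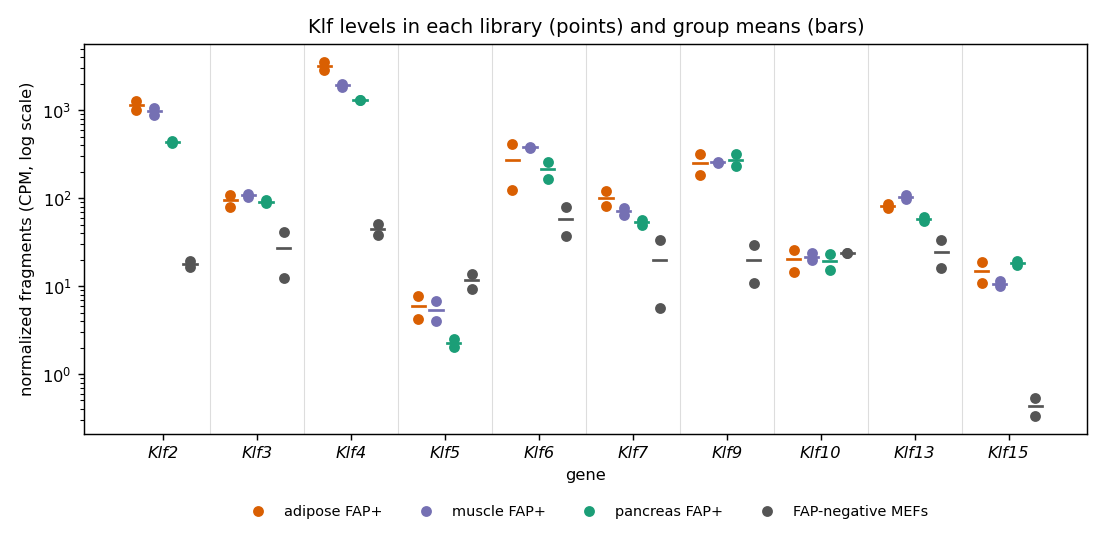
Normalized fragments (CPM, log scale) of the 10 Klf genes, with 1 point per library, coloured by group, and a bar at each group mean (n = 2). Klf2, Klf4, Klf9 and Klf15 lie well above the MEF points in all 6 FAP+ libraries, Klf5 lies below them, and the Klf10 points lie between 14.33 and 26.08 CPM in all groups.

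Klf4, a barrier and pluripotency factor, was the most abundant of the family in every FAP+ library. It stood at 3576 and 2844 CPM in adipose, 1993 and 1860 CPM in muscle and 1319 and 1306 CPM in pancreas FAP+ cells, against 38.11 and 50.51 CPM in MEFs. No FAP+ library came near the MEF values, and the lowest FAP+ library was a pancreas one. Adipose cells exceeded MEFs by 72.4-fold in Klf4 (log2 6.18 ± 0.39 SE, adjusted p = 4.35e-05). The excess was 43.5-fold for muscle cells (log2 5.44 ± 0.38, adjusted p = 7.1e-05) and 29.6-fold for pancreas cells (log2 4.89 ± 0.37, adjusted p = 8.87e-05). By FPKM it ranked 88 to 166 among the 22558 genes in FAP+ libraries, and 2823 and 3519 in MEFs.

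Klf2, which keeps lymphocytes and endothelial cells quiescent, followed the same order. Its level was 1272 and 1004 CPM in adipose, 893.2 and 1066 CPM in muscle and 452.5 and 427.0 CPM in pancreas, against 19.10 and 16.63 CPM in MEFs. The adipose and muscle libraries overlapped, the pancreas libraries lay below both, and the MEF libraries lay far below all others. The fold over MEFs was 63.7 in adipose (log2 5.99 ± 0.36, adjusted p = 3.66e-05), 54.8 in muscle (log2 5.78 ± 0.36, adjusted p = 5.54e-05), while pancreas reached 24.6 (log2 4.62 ± 0.34, adjusted p = 7.89e-05). In whole reads the first adipose library held 2447 CPM of Klf2 and 7498 CPM of Klf4, the second 1198 and 4542 CPM. The log2 differences from MEFs without the first adipose library were 5.82 for Klf2 and 6.0 for Klf4.

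Klf15, a metabolic regulator that glucocorticoids induce in muscle, liver and fat, was scarce but showed a fold of the same order. It measured 19.06 and 10.95 CPM in adipose, 9.95 and 11.45 CPM in muscle and 19.44 and 17.25 CPM in pancreas, with 0.5397 and 0.3339 CPM in MEFs. The MEF values rest on 18 and 11 fragments, so the size of the fold is less certain than its direction. Klf15 was 33.8-fold higher in adipose (log2 5.08 ± 0.42, adjusted p = 0.000109), 24.2-fold for muscle cells (log2 4.6 ± 0.42, adjusted p = 0.000185) and, for pancreas cells, 41.5-fold (log2 5.37 ± 0.43, adjusted p = 0.000108). On the log2(FPKM + 1) scale, which compresses low values, the differences were 2.17, 2.23 and 3.04. In whole reads the adipose libraries held 13.82 and 12.64 CPM of Klf15, and the adipose difference was 4.5 there and 4.64 without the first adipose library.

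Klf9, an early target of glucocorticoid and thyroid hormone receptors, was raised to a like degree in the 3 tissues. Its libraries held 183.4 and 317.7 CPM in adipose, 252.1 and 260.4 CPM in muscle and 231.9 and 316.1 CPM in pancreas, against 10.85 and 29.05 CPM in MEFs. In fragments the FAP+ tissues overlapped with one another, and none overlapped with MEFs. In whole reads they lay apart, at 676.2 and 693.5 CPM in adipose, 480.8 and 486.1 CPM in muscle and 505.3 and 594.9 CPM in pancreas, against 21.20 and 59.82 CPM in MEFs. The fold over MEFs was 12.6 in adipose (log2 3.65 ± 0.54, adjusted p = 0.00129), 12.8 in muscle (log2 3.68 ± 0.54, adjusted p = 0.00138), while pancreas reached 13.7 (log2 3.78 ± 0.54, adjusted p = 0.0013). The adipose difference was 4.08 in whole reads (adjusted p = 0.00018) and 3.99 without the first adipose library (adjusted p = 0.000292).

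Klf3, Klf6, Klf7 and Klf13 were higher than in MEFs by smaller margins, and here the spread between the 2 MEF libraries mattered. In the first MEF library all 4 were lower than in the second, by 3.32-fold for Klf3, 2.13-fold for Klf6, 6.02-fold for Klf7 and 2.10-fold for Klf13, while the median gene differed by 1.22-fold. Klf9 also differed between these libraries, by 2.68-fold, and whole reads gave like ratios (3.34, 2.36, 6.01, 2.14 and 2.82). Klf2 (1.15-fold) and Klf10 (1.01-fold) were close to equal in them.

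Klf6, a widely expressed early-response factor, read 125.1 and 415.7 CPM in adipose, 376.6 and 383.1 CPM in muscle and 166.6 and 259.8 CPM in pancreas, against 37.00 and 78.83 CPM in MEFs. The first adipose library was far below the second, yet in whole reads the pair was at 1408 and 1553 CPM. All FAP+ libraries lay above both MEF libraries in CPM of fragments and of whole reads. In FPKM the first adipose library, at 17.4, lay between the MEF libraries at 16.04 and 31.77. Klf6 was 4.67-fold higher in adipose (log2 2.22 ± 0.61, adjusted p = 0.0188), 6.56-fold for muscle cells (log2 2.71 ± 0.62, adjusted p = 0.0102) and, for pancreas cells, 3.68-fold (log2 1.88 ± 0.60, adjusted p = 0.0381). In whole reads the adipose difference was 3.03 (adjusted p = 0.000377), and without the first adipose library it was 2.84 (adjusted p = 0.000885). Without the first MEF library Klf6 was not called in any tissue (log2 1.77, 2.25 and 1.43 in adipose, muscle and pancreas, adjusted p = 0.123, 0.0787 and 0.207). The pancreas call of Klf6 held in 9 of 20 alternatives.

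Klf7, best known from axon growth and as a brake on adipogenesis, was called in adipose only. Its levels were 121.1 and 81.48 CPM in adipose, 77.56 and 64.35 CPM in muscle and 49.98 and 56.12 CPM in pancreas, against 5.577 and 33.60 CPM in MEFs. Each FAP+ library lay above both MEF libraries. In whole reads the adipose libraries were nearly equal, at 92.00 and 93.16 CPM, with a difference from MEFs of 1.96 (adjusted p = 0.0296). The log2 difference was 2.37 ± 0.71 in adipose (5.17-fold, adjusted p = 0.0257), 1.86 ± 0.70 in muscle (adjusted p = 0.0626) and 1.44 ± 0.69 in pancreas (adjusted p = 0.127). These 3 values do not show that the tissues differ, as Klf7 differed by -0.51 between muscle and adipose (adjusted p = 0.665) and by -0.93 between pancreas and adipose (adjusted p = 0.429). Without the second MEF library, the differences were 4.2, 3.71 and 3.28 and all 3 were called. Without the first they were 1.57, 1.06 and 0.65, and adipose alone was called (adjusted p = 0.0272).

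Among the factors that recruit corepressors, Klf3 stood at 109.2 and 80.30 CPM in adipose, 102.7 and 112.5 CPM in muscle and 87.14 and 96.18 CPM in pancreas, against 12.41 and 41.25 CPM in MEFs. The tissues lay close together and, in CPM, all above MEFs. For Klf3 the fold over MEFs was 3.53 in adipose (log2 1.82 ± 0.51, adjusted p = 0.0204), 4.01-fold for muscle cells (log2 2.00 ± 0.51, adjusted p = 0.0159) and, for pancreas cells, 3.42-fold (log2 1.77 ± 0.51, adjusted p = 0.0255). Leaving out the first or the second MEF library moved the adipose difference to 1.18 or 2.95 and the muscle difference to 1.36 or 3.15, with both calls kept. The adipose call was lost with library size alone (0.86, adjusted p = 0.183), with only the groups compared (1.87, adjusted p = 0.0795) and in the 3 limma fits (0.87 to 0.91, adjusted p = 0.144 to 0.152). Leaving out the first MEF library ended the pancreas call (log2 1.15, adjusted p = 0.0583), as did leaving out either pancreas library (1.83 and 1.70, adjusted p = 0.0877 and 0.0958). Leaving out either muscle library ended the muscle call (2.07 and 1.94, adjusted p = 0.0579 and 0.0725).

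Klf13, a regulator of Ccl5 in T cells that binds Sin3, measured 85.31 and 77.18 CPM in adipose, 108.6 and 96.87 CPM in muscle and 60.61 and 54.98 CPM in pancreas, against 15.89 and 33.33 CPM in MEFs. In CPM no 2 groups overlapped, with muscle highest and pancreas lowest of the tissues. In FPKM adipose overlapped with pancreas and with MEFs. No difference between tissues was called (adjusted p = 0.578 for muscle against adipose, 0.42 for pancreas against adipose and 0.348 for pancreas against muscle). It was 3.30-fold higher in adipose (log2 1.72 ± 0.36, adjusted p = 0.00623), 4.17-fold for muscle cells (log2 2.06 ± 0.36, adjusted p = 0.00326) and, for pancreas cells, 2.35-fold (log2 1.23 ± 0.36, adjusted p = 0.0259). The muscle call of Klf13 held under all 20 alternatives, the adipose call under 16 and the pancreas call under 11, the latter being lost without the first MEF library (log2 0.79, adjusted p = 0.113).

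Klf10 and Klf5 were not called higher in any tissue. Klf10, a Sin3-binding factor that TGF-beta induces early in many cells, was at 14.33 and 26.08 CPM in adipose, 19.64 and 23.81 CPM in muscle, 15.27 and 23.44 CPM in pancreas and 23.87 and 23.62 CPM in MEFs. Its log2 difference from MEFs was -0.23 ± 0.35 in adipose (adjusted p = 0.605), -0.13 ± 0.35 in muscle (adjusted p = 0.791) and -0.29 ± 0.35 in pancreas (adjusted p = 0.525), and it was called under none of the 20 alternatives. Over these the difference ranged from -1.40 to 0.47 in adipose, from -0.76 to 0.00 in muscle and from -0.80 to -0.01 in pancreas. In FPKM all 3 tissues lay below MEFs. The value of 0.47 came from whole reads, where the adipose libraries held 81.01 and 69.46 CPM and the MEFs 53.53 and 54.87 CPM.

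Klf5, a factor of proliferating epithelium and smooth muscle and of early adipogenesis, was lower than in MEFs in every FAP+ library. It measured 7.70 and 4.218 CPM in adipose, 4.018 and 6.821 CPM in muscle and 2.502 and 2.027 CPM in pancreas, against 9.386 and 13.90 CPM in MEFs. The highest FAP+ library, an adipose one, lay below the lower MEF library. In pancreas it was 5.13-fold lower (log2 -2.36 ± 0.44, adjusted p = 0.00449), a call kept under all 20 alternatives. The adipose (-0.98 ± 0.42, adjusted p = 0.0862) and muscle (-1.10 ± 0.42, adjusted p = 0.0672) differences did not pass the threshold. Without the first adipose library the adipose value was -1.46 (adjusted p = 0.0229), and in whole reads it was -1.56 (adjusted p = 0.00507).

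**Figure D2:**
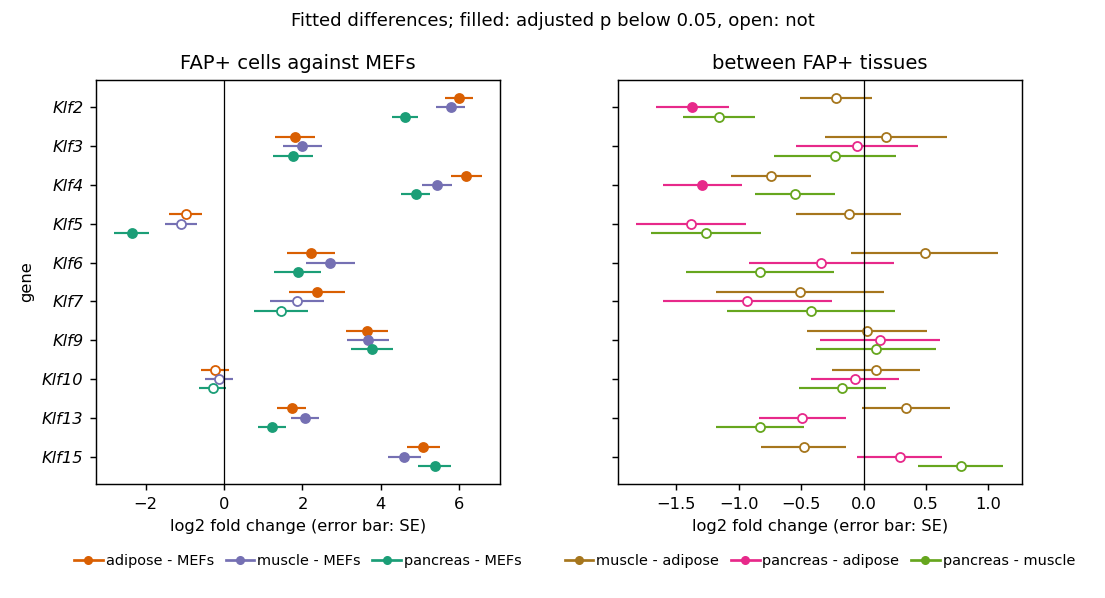
Fitted log2 fold changes ± SE of the 10 Klf genes, at left for each FAP+ tissue against MEFs and at right between FAP+ tissues, with filled points at an adjusted p below 0.05. At left 8, 7 and 8 points are filled for adipose, muscle and pancreas, and at right the only filled points are Klf2 and Klf4 in pancreas against adipose.

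Between FAP+ tissues, 2 of the 10 genes were called, Klf2 and Klf4. Klf2 was 2.59-fold lower in pancreas than in adipose FAP+ cells (log2 -1.37 ± 0.29, adjusted p = 0.0299), and Klf4 was 2.45-fold lower (-1.29 ± 0.32, adjusted p = 0.0467). Of all genes, 5.73% were called lower and 3.32% higher in that comparison (9.05% in all), and the median of the 10 genes was -0.42 against 0 over all genes. Both pancreas libraries lay below both adipose libraries for each gene. Without the first adipose library the values were -1.20 (adjusted p = 0.0143) for Klf2 and -1.12 (adjusted p = 0.0264) for Klf4, and in whole reads -1.80 (adjusted p = 0.00945) and -1.51 (adjusted p = 0.0142). With library size as the only scaling neither was called, at -0.67 (adjusted p = 0.191) and -0.59 (adjusted p = 0.239), a scaling under which the median of all genes was 0.63. Klf5 differed by as much (log2 -1.38 ± 0.44, adjusted p = 0.097), with both pancreas libraries below both adipose libraries, but did not pass the threshold. It was called by DESeq2 (-1.44, adjusted p = 0.036) and without the second adipose library (-1.76, adjusted p = 0.0125). Neither Klf2 nor Klf4 was called when a muscle, pancreas or MEF library was left out, with log2 values of -1.41 to -1.33 for Klf2 and -1.29 to -1.28 for Klf4.

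No member was called between muscle and adipose by edgeR's quasi-likelihood test, where 6.12% of all genes were (2.34% higher, 3.78% lower), although Klf4 had an unadjusted p of 0.0494 (log2 -0.74 ± 0.32). DESeq2 called that 1 gene (-0.80, adjusted p = 0.0396) and limma none. None was called between pancreas and muscle, where 3.67% of all genes were (1.54% higher, 2.14% lower), and 3 had an unadjusted p below 0.05. These were Klf2 (log2 -1.16 ± 0.29, adjusted p = 0.0854), Klf5 (-1.26 ± 0.44, adjusted p = 0.217) and Klf13 (-0.83 ± 0.35, adjusted p = 0.348). DESeq2 called 1, Klf2 (-1.15, adjusted p = 0.000734), and limma none. A fit of only the pancreas and muscle libraries called 3, which were Klf2, Klf13 (-0.83, adjusted p = 0.0238) and Klf15 (0.77, adjusted p = 0.0495).

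Seen per length within a library, Klf2 and Klf4 made up most of the Klf RNA of FAP+ cells and a minor part of that of MEFs. Over 17 Klf genes, the summed FPKM was 1252 and 2002 in adipose, 1615 and 1751 in muscle and 1076 and 1246 in pancreas, against 121.0 and 209.0 in MEFs. Klf2 and Klf4 together held 87.8 and 82.0% of that sum in adipose, 79.0 and 79.6% in muscle and 75.9 and 70.8% in pancreas. In MEFs they held 34.9 and 21.0%. The RPKM table gave lower shares with the same gap, 64.3 to 83.5% in FAP+ cells against 26.8 and 16.6% in MEFs. In MEFs no member stood out: the mean FPKM ran from 25.5 ± 3.75 for Klf4 (SD, n = 2) through 25.2 ± 24.9 for Klf7, 23.9 ± 11.1 for Klf6, 20.1 ± 14.5 for Klf3 and 17.4 ± 2.60 for Klf2, with overlapping ranges between each neighbour in this order.

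**Figure D3:**
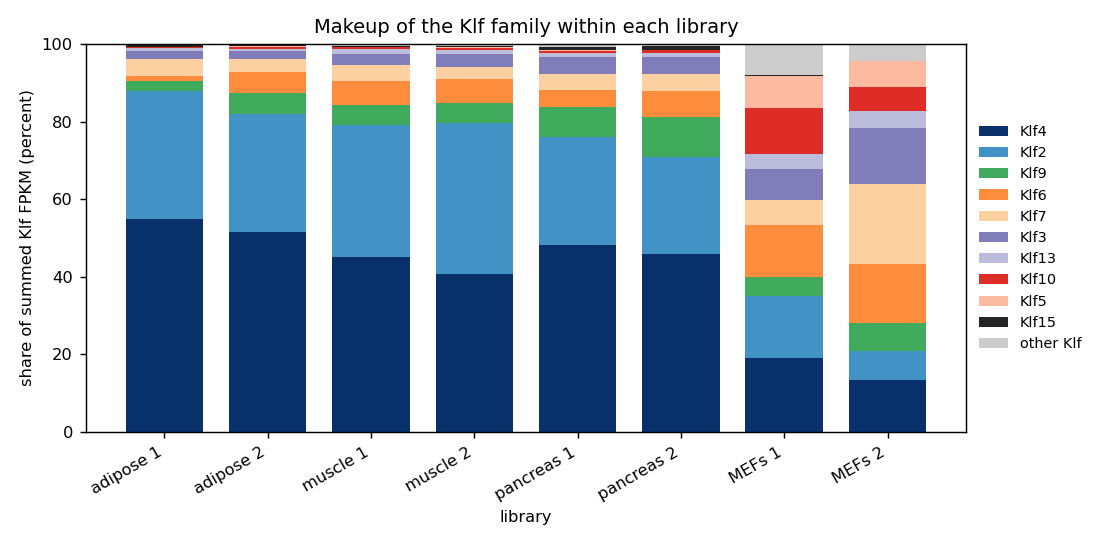
Share of the summed FPKM of 17 Klf genes held by each gene (percent, stacked to 100) in each of the 8 libraries. Klf4 and Klf2 fill 70.8 to 87.8% of the bars of FAP+ libraries and 34.9 and 21.0% of the MEF bars, where Klf3, Klf5, Klf6, Klf7 and Klf10 take larger shares.

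In FAP+ cells the order of mean FPKM began with Klf4 and Klf2 in each tissue. In muscle these were 720.0 ± 12.2 and 615 ± 96.0, and in pancreas 544 ± 36.4 and 305 ± 9.88, with separate ranges. In adipose they were 860.0 ± 242 and 510.0 ± 141. Klf9, Klf6 and Klf7 came next, their ranges overlapping in adipose, while in pancreas Klf9 (107 ± 30.8) lay apart from Klf6 (64.6 ± 24.4). Klf3 followed, then Klf13. Klf10, Klf15 and Klf5 closed the order in every FAP+ tissue, and Klf5 was last in all 3, whereas in MEFs Klf15 was last (0.349 ± 0.132). As a share of the sum, Klf5 went from 7.41% in MEFs to 0.143 to 0.212% in the tissues and Klf10 from 9.11% to 0.346 to 0.69%.

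Klf2 and Klf4 are genes of endothelial cells too, so markers of other cell types were read beside them. The 8 endothelial markers summed to 485 to 658 CPM in adipose, 103 to 169 CPM in muscle, 66.4 to 76.6 CPM in pancreas and 2.97 to 3.51 CPM in MEFs, and in the tissues Tek, a receptor for angiopoietins, gave much of the muscle and pancreas sums. Without Tek the other 7 summed to 433 and 574 CPM in adipose, 16.3 and 67.2 CPM in muscle, 8.39 and 7.85 CPM in pancreas and 2.61 and 2.46 CPM in MEFs. All 8 were called higher in adipose than in MEFs, 7 in muscle and 5 in pancreas, and 7 of 8 were lower in pancreas than in adipose. Their part in the levels of Klf2 and Klf4 was not tested. In pancreas Tek stood at 58.01 and 68.75 CPM and Kdr, a receptor for vascular endothelial growth factor, at 4.43 and 5.456 CPM, while the other 6 lay at or below 1.407 CPM in both libraries. The 5 called higher there than in MEFs were Tek, Kdr, Pecam1, Vwf and Cldn5, and Cdh5, Tie1 and Emcn were not called. Epithelial and acinar markers (9 genes) summed to 121 to 346 CPM in pancreas against 47.6 to 65.7 CPM in MEFs, 7 of them called higher, and their part in the pancreas values was not tested. Mural cell markers (5 genes) summed to 132 to 150.0 CPM in adipose, 73.7 to 113 CPM in muscle and 99.4 to 114 CPM in pancreas. In MEFs the sum was 92.0 to 117 CPM. Gene by gene, 4 were called higher and 1 lower in adipose than in MEFs, 2 higher in muscle and 3 higher in pancreas. Their median log2 differences were 3.58, 1.89 and 1.53, and the part of mural cells in the Klf levels was not tested. Leukocyte markers (8 genes) stayed at or below 17.8 CPM and muscle fibre and myogenic markers (7 genes) at or below 70.0 CPM in sum. The fibroblast list was called higher than in MEFs for 8 of 8 genes in adipose, 7 in muscle and 6 in pancreas.

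**Figure D4:**
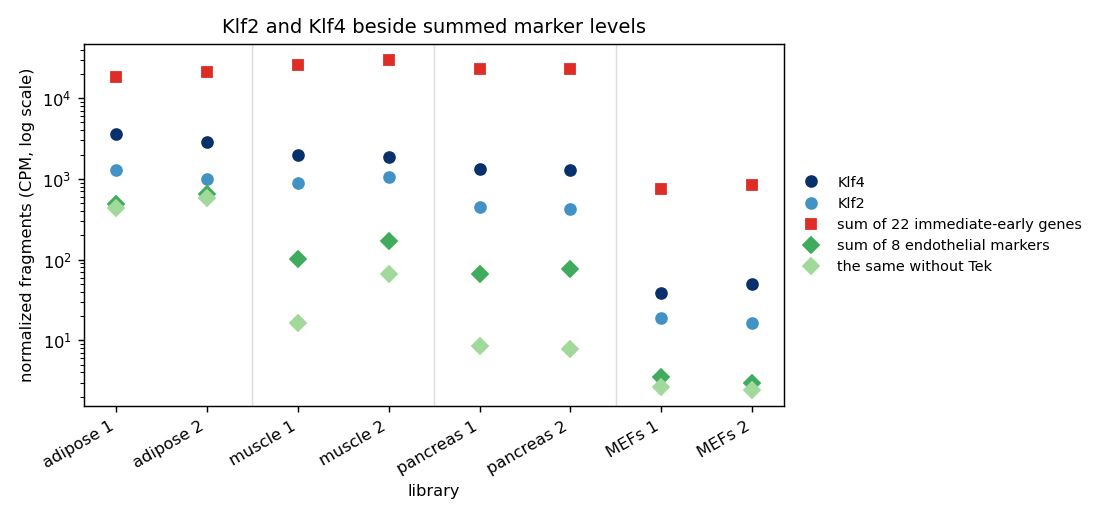
Normalized fragments (CPM, log scale) per library of Klf2, Klf4, the sum of 22 immediate-early genes and the sum of 8 endothelial markers, with and without Tek. All 5 quantities are lowest in MEFs. Klf2, Klf4 and both endothelial sums are lower in the pancreas than in the adipose libraries.

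Immediate-early genes, which cells switch on within minutes of stimulation or dissociation, were mostly higher in FAP+ cells than in MEFs. Klf2, Klf4, Klf6 and Klf10 are often counted among them, of which Klf10 was called in no tissue. All 22 on the list were called higher in adipose than in MEFs, 21 in muscle and 19 in pancreas. Of all genes, 26.9%, 23.7% and 23.1% were. The medians of the list were 4.66, 4.78 and 4.54 on the log2 scale. The 22 genes summed to 18280 to 21186 CPM in adipose, 25484 to 29300 CPM in muscle, 22906 to 22913 CPM in pancreas and 757 to 836 CPM in MEFs. Among the tissues this sum was lowest in adipose, where Klf4 was highest in CPM. Fosb, a subunit of AP-1, showed the largest difference in adipose (log2 9.40 ± 0.59, adjusted p = 4.18e-05) and pancreas (9.28 ± 0.58, adjusted p = 5.31e-05), and Hspa1a, a heat shock protein, in muscle (8.60). The part of this response in the Klf levels was not tested. Between pancreas and adipose 7 of the 22 were lower and 1 higher, beside 5.73% and 3.32% of all genes. Fos did not pass in this mixed pattern (log2 1.16).

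The glucocorticoid receptor and genes that glucocorticoids induce, as they do Klf9 and Klf15, were also mostly higher in FAP+ cells. Of 10 genes, 8 were called higher in adipose, 8 in muscle and 7 in pancreas, beside 26.9%, 23.7% and 23.1% of all genes. The medians of the 10 genes were 3.11, 3.12 and 2.34. The largest was Zbtb16, a transcription factor of that response, at 24.24 and 47.45 CPM in adipose, 67.67 and 51.48 CPM in muscle and 14.59 and 21.72 CPM in pancreas against 0.02999 and 0.09106 CPM in MEFs. Those MEF values lie at or below the level of 3 fragments per library, so no fold is given. Nr3c1, the receptor, was higher by log2 1.28 in adipose, 2.15 in muscle and 2.22 in pancreas. Sgk1 and Pdk4 were called in no tissue, and Fkbp5 was not called in pancreas. Dusp1 and Cebpd stand in this list as well as in another one. The part of this response in the Klf9 and Klf15 levels was not tested.

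Of 10 genes that act with Klf factors in fat cell differentiation, 7 were higher and 1 lower in adipose than in MEFs, 5 and 3 in muscle, and 4 and 2 in pancreas, all against the same MEFs. In these comparisons 26.9%, 23.7% and 23.1% of all genes were called higher, and 23.2%, 20.0% and 19.4% lower. Between tissues, 4 of the 10 were lower in pancreas than in adipose, beside 5.73% of all genes. Muscle was lower than adipose for 2 of the 10, beside 3.78% of all genes. Fabp4, a fatty acid carrier of adipocytes and capillary endothelium, differed most in adipose at 6445 and 782.4 CPM against 2.459 and 5.433 CPM in MEFs (log2 9.84 ± 1.33, adjusted p = 0.000904). Cebpd was the most changed in muscle (5.39 ± 0.37, adjusted p = 6.88e-05). Gata2, which holds back adipogenesis, was lower in pancreas, at 0.2606 and 0.05196 CPM against 14.48 and 14.81 CPM in MEFs (adjusted p = 0.000787). It was also called lower in muscle (adjusted p = 0.00258) and was not called in adipose (adjusted p = 0.0782). Adipocyte markers summed to 15.2 to 32.0 CPM in adipose and to at most 1.47 CPM in the other groups.

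The list of the mechanical pathway to Klf2 and Klf4, with the kinases Map3k3, Map2k5 and Mapk7, the Mef2 factors and known Klf2 targets, held 11 genes. Of these, 5 were higher in adipose than in MEFs, 4 higher and 1 lower in muscle, and 2 higher and 1 lower in pancreas. Of all genes tested, 26.9% were called higher in adipose, 23.7% in muscle and 23.1% in pancreas, and 23.2%, 20.0% and 19.4% lower. The 3 kinases were called in none of the 3 comparisons. Of the targets, Thbd, the thrombin receptor thrombomodulin, was higher in all 3 tissues (log2 4.69, 2.69 and 3.04), while S1pr1, a sphingosine phosphate receptor, was higher in adipose (1.44) and lower in muscle (-1.69) and pancreas (-3.87). Nos3, the endothelial nitric oxide synthase, was higher in adipose (5.03) and muscle (2.52). In pancreas Nos3 was at 0.5212 and 0.2079 CPM, not called against MEFs, and S1pr1 at 0.6775 and 0.6755 CPM. The part of Klf2 in the levels of these 3 targets was not tested.

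Among 13 corepressors, coactivators and ubiquitin ligases of Klf proteins, 1 was higher and 3 lower in adipose than in MEFs, 1 and 4 in muscle, and 1 and 2 in pancreas, with medians of -0.68, -0.40 and -0.32. These counts stand beside 26.9%, 23.7% and 23.1% of all genes called higher, and 23.2%, 20.0% and 19.4% called lower, in adipose, muscle and pancreas. The higher gene was in each tissue Kat2b, the acetyltransferase PCAF (log2 2.16, 2.68 and 1.68). Hdac2 and Hdac3, histone deacetylases that work with Sin3 and other corepressors, were lower in all 3 (Hdac2 -1.47, -1.76 and -1.55). Genes of the early TGF-beta response, to which Klf10 belongs, were 2 higher and 1 lower of 11 in adipose, 3 and 2 in muscle and 3 and 4 in pancreas. The shares of all genes just given apply to these counts too. The receptor Tgfbr2 was the most changed gene of the TGF-beta list in each tissue (2.62, 2.23 and 2.42).

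Of the 16 other Klf and Sp genes, 10 passed the filter. Of these, 1 was higher and 2 lower in adipose than in MEFs, 2 and 2 in muscle, and 1 and 2 in pancreas. Among all genes tested, 26.9%, 23.7% and 23.1% were called higher in these comparisons, and 23.2%, 20.0% and 19.4% lower. Klf8, a CtBP-binding relative of Klf3, was lower in all 3 (adjusted p = 0.00383, 0.00721 and 0.00354), at 1.829 and 1.548 CPM in MEFs and at most 0.2574 CPM in FAP+ cells. Sp7, the osteoblast factor osterix, was lower too (adjusted p = 0.0111, 0.0248 and 0.0203), at 1.349 and 1.002 CPM in MEFs and at most 0.2085 CPM in FAP+ cells. No fold is given for these genes or for Klf14, since at least 1 library of the lower group held 3 fragments or fewer. Klf14, a relative of Klf16 and Klf13 in the Sin3 group, was higher in muscle (adjusted p = 0.0346), at 0.7016 and 1.759 CPM, and in pancreas (adjusted p = 0.00711), at 2.814 and 4.001 CPM, against 0.3298 and 0.03035 CPM in MEFs. Klf14 was also called higher in pancreas than in adipose (adjusted p = 0.0375), the only 1 of the 10 called between tissues. Klf12 was higher in muscle (log2 1.95) and Sp2 in adipose (1.48). The differences of Klf11, Klf16, Sp1, Sp3 and Sp4 did not pass in any tissue and ran from -1.27 for Sp3 in adipose to 1.26 for Sp4 in muscle. Klf1, Klf17, Sp5, Sp6, Sp8 and Sp9 did not pass the filter.

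Genes whose pattern over the 8 libraries lay closest to that of a Klf gene were sought for the 3 members with the widest range. The measure was the root mean square difference of centred log2 CPM among 7790 genes. All Klf genes, predicted genes and genes with a low mean CPM were left out, so nearness between Klf genes was not ranked. Among the genes searched, Klf4 and Klf2 shared the nearest, Emilin2, a matrix glycoprotein, at 0.21 and 0.29. The median gene was at 2.50 and 2.49. Emilin2 stood at 718.3 and 518.0 CPM in adipose, 445.5 and 408.7 CPM in muscle, 320.1 and 314.3 CPM in pancreas and 11.57 and 10.81 CPM in MEFs. Adamts2, a procollagen protease, came next for Klf4 (0.30) and was also near Klf2 (0.34), beside Mst1r (0.30) for Klf4 and H2-K2 (0.32) for Klf2. Nearest to Klf15 were Ptgir, the prostacyclin receptor (0.27), Acvrl1, a receptor for bone morphogenetic proteins (0.28), and Dusp1 (0.30), with a median of 2.19. Likeness here rests mostly on the gap between FAP+ cells and MEFs, which all these genes share.

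The gap between the tables for the first adipose library reached the Klf genes unequally. The ratio of fragments to whole reads in it, set against the second adipose library on the log2 scale, differed by -1.59 for Klf6, -1.09 for Klf10, -0.76 for Klf9, -0.69 for Klf2 and -0.39 for Klf4. The difference was 0.67 for Klf15, 0.66 for Klf5 and 0.59 for Klf7, and near 0 for Klf3 (0.06) and Klf13 (-0.16). In muscle and MEFs the corresponding values of the 10 genes lay between -0.07 and 0.15, and in pancreas between -0.46 and 0.30. Which table is closer to the RNA in the cells was not tested.

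**Figure D5:**
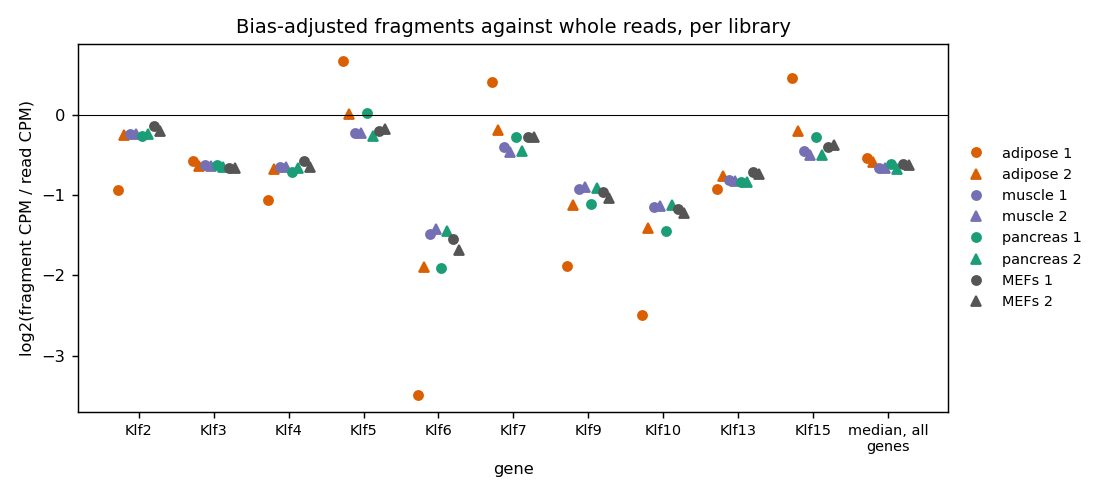
Log2 ratio of bias-adjusted fragment CPM to whole-read CPM for each of the 10 Klf genes and the median of all genes, with 1 point per library (circles, replicate 1, triangles, replicate 2). Adipose library 1 lies apart from the other 7 for most Klf genes, lowest for Klf6 (-3.49) and Klf10 (-2.50) and highest for Klf5 (0.67).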

How the data were processed

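RNA-seq of 8 mouse libraries was analysed, 2 for each of 4 groups named in the labels. Per the labels' protocols, RNA was extracted with Purelink and amplified with MessageAmp, which starts at the poly(A) tail, before Illumina library preparation. Tools named in the submitters' processing notes are TopHat2, Bowtie2, HTSeq and edgeR, with the build mm9, all without roles or versions. Which program adjusted the fragments for bias is not stated there. Of the deposited files, 3 tables were used: estimated counts of fragments after bias adjustment deposited by the authors, the matching FPKM values deposited by the authors, and RPKM values deposited by the authors, each with 6 further columns that were not used here.

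From these, estimated counts were rounded and tested with edgeR 4.0.16 (quasi-likelihood, TMM factors, filterByExpr, no covariates, all 8 libraries in 1 fit) in R 4.3.3. It left 4 residual degrees of freedom, and the biological coefficient of variation was 33.2%. P-values were adjusted (Benjamini-Hochberg) within each of 6 comparisons, over 14847 genes. The SE printed with a log2 fold change was worked back from the test. It is the absolute log2 fold change divided by the square root of the quasi-likelihood F, and so is approximate. The RPKM values gave whole reads for 96.87% of genes (21901, within a tolerance of 0.001), and a count test on those reads over 14365 genes was 1 of 20 alternatives. The others were RLE, upper quartile and no scaling factors, DESeq2 1.42.0, no filter, 5 CPM in 2 libraries, a replicate block, a fit of only the 2 groups in question, limma 3.58.1 on log2(FPKM + 1), with and without a minimum of 1 FPKM in 2 libraries, and on log2(FPKM + 0.1), and each library left out. A run of the fitting on simulated data checked the code only. It held far fewer changed genes than were called against MEFs here, and no result given rests on it. No fold is given for a named gene where a library of the lower group held 3 fragments or fewer; intervals from counting would cover counting error only.

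The Klf genes, the gene lists, the markers and the tests were chosen with earlier results of these data known. Named genes are all members, every other Klf and Sp gene that passed the filter, and the 3 nearest in pattern. Also named is the called gene of each list with the largest change against MEFs. It had to reach 5 CPM or more in each library of the group where it is higher. Pdgfra, Dcn, Lum, Fap and the endothelial markers were named beside them after their values were seen. So were Nr3c1, Fkbp5, Sgk1, Pdk4, Fos, Hdac2, Hdac3 and the kinases. Protein sequences were not used here. Promoter coordinates are of GRCm38.p6 and were not joined to the files, whose build is mm9.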

Additional observations from a re-analysis of the deposited data

Results flagged for a closer look

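Klf2 and Klf4 differed between 2 tissues under the same sort. Klf2 was lower in pancreas than in adipose FAP+ cells by -1.37 on the log2 scale (adjusted p = 0.0299), and Klf4 by -1.29 (adjusted p = 0.0467), by edgeR's quasi-likelihood test of the difference itself. Both pancreas libraries lay below both adipose libraries. Over the alternatives Klf2 ranged from -1.80 to -0.67 and Klf4 from -1.51 to -0.59, with no change of sign, but the call was kept in 9 of 20 alternatives for Klf2 and 5 of 20 for Klf4. It was lost for both with library size alone, with only the groups compared, in the 3 limma fits and with any muscle, pancreas or MEF library left out. In the same comparison 7 of 8 endothelial markers were lower in pancreas, and their part was not tested.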

How the results depend on the processing

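Under all 20 alternatives Klf2, Klf4, Klf9 and Klf15 stayed called against MEFs in the 3 tissues, as did Klf5 in pancreas and Klf13 in muscle. The numbers of Klf genes called were less stable. In adipose against MEFs, 5 in place of 8 were called with library size alone, with only the groups compared and with each of the 3 limma settings, and 7 to 9 with a library left out. In muscle against MEFs, 6 to 9 in place of 7 were called with a library left out. In pancreas against MEFs, 5 in place of 8 were called with library size alone and 5 to 8 with a library left out. For pancreas against adipose, 2 became 1 with upper quartile factors, no filter, the 5 CPM filter or the replicate block, 0 with library size alone, only the groups compared or limma, 4 in recovered whole reads, and 0 to 3 with a library left out. For muscle against adipose, 0 became 1 with DESeq2 and 0 to 3 with a library left out. For pancreas against muscle, 0 became 1 with DESeq2, 3 with only the groups compared, and 0 to 1 with a library left out. The cause was not tested. A lone library left in a group was assumed to vary like the other groups.

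Same-numbered replicates were correlated in their differences at 0.113 (adipose and muscle), 0.347 (adipose and pancreas), -0.0109 (muscle and pancreas), -0.156 (adipose and MEFs), -0.0737 (muscle and MEFs) and 0.00301 (pancreas and MEFs). The labels do not say what a shared number marks, and not every pair was above 0.1, so the samples were not treated as paired. With the replicate number as a block the counts were 8, 7 and 8 against MEFs and 0, 1 and 0 between tissues, Klf4 in pancreas against adipose being at -1.29 (adjusted p = 0.0738).

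Directions turned only for values that were not called. Against MEFs, Klf10 in adipose was 0.47 in whole reads and -0.73 to 0.14 with a library left out, and in muscle -0.27 to 0.00. In muscle against adipose, Klf2 was 0.36 with library size alone and 0.29 under each limma setting. Klf5 was 0.01 with upper quartile factors, 0.52 with library size alone, 0.29, 0.37 and 0.29 under limma and 0.50 in whole reads. Klf6 was -0.51, Klf10 -0.65 and Klf9 -0.50 in whole reads, and Klf9 was -0.02 with RLE factors and DESeq2. Klf7 was 0.10 with library size alone, 0.01 under limma and 0.04 in whole reads, and Klf15 0.16, then 0.05, 0.06 and 0.05, and 0.18. In pancreas against adipose, upper quartile factors gave 0.10 for Klf3 and 0.07 for Klf10, no filter gave 0.00 for Klf3, and whole reads gave -0.32 for Klf9. Library size alone gave 0.67 for Klf3, 0.13 for Klf6, 0.49 for Klf10 and 0.19 for Klf13, where limma gave 0.60, 0.61 and 0.60, then 0.49, 0.51 and 0.49, then 0.50, 0.60 and 0.50, and 0.14, 0.16 and 0.14. Leaving out a library gave, in muscle against adipose, -0.27 to 0.60 for Klf10, -0.02 to 0.41 for Klf3, -0.56 to 0.36 for Klf5, -0.14 to 1.60 for Klf6 and -0.32 to 0.48 for Klf9. In pancreas against adipose it gave -0.43 to 0.43 for Klf10, -0.06 to 0.74 for Klf15, -0.25 to 0.19 for Klf3, -0.97 to 0.77 for Klf6 and -0.22 to 0.58 for Klf9, and in pancreas against muscle -0.51 to 0.10 for Klf10 and -0.14 to 0.29 for Klf9.

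With library size alone the median gene against MEFs was at -0.85, -0.33 and -0.22, in place of 0.05, 0.03 and 0.02. The share of calls that were higher went from 53.6, 54.2 and 54.4% to 28.8, 43.8 and 49.5%. Between tissues it went from 38.2, 36.7 and 41.8% to 65.6, 69.8 and 47.9%. The RPKM table, an alternative chosen after seeing the data, lowered the share of Klf2 and Klf4 in the Klf sum to 64.3 to 83.5% in the tissues, in place of 70.8 to 87.8%. With 11 and 18 Klf15 fragments in MEFs, depth limits the size of the Klf15 folds.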
